A study of Rattus norvegicus with 24 samples.

Results

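Transcripts of 8 tight and adherens junction genes were followed in primary rat hepatocytes: the claudins Cldn1, Cldn2 and Cldn3, the membrane proteins Ocln and F11r, the scaffold Tjp1, and the cadherins Cdh1 and Cdh2. The members were taken as all array probe sets whose only platform gene symbol is 1 of these 8. This gave 15 of the 31042 probe sets tested and 8 of 14217 genes. A gene was read by its probe set with the highest mean over the 24 arrays, and the other 7 probe sets are given beside it.

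Tight junctions seal the space between neighbouring epithelial cells. In the liver they separate the bile canaliculus from the blood side of the hepatocyte. Claudins form the sealing strands and, in some cases, pores; occludin and junctional adhesion molecules sit in the same belt, and zonula occludens proteins tie them to actin. Adherens junctions lie next to that belt, where cadherins of adjacent cells bind each other and attach to actin through catenins. Hepatocytes are unusual among epithelial cells in carrying both E-cadherin and N-cadherin.

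The cells were primary hepatocytes of Rattus norvegicus, seeded on a gel of type I collagen in a serum-containing medium with epidermal growth factor, insulin, glucagon and hydrocortisone, which both cultures shared. Monolayer cultures stayed on this single gel, and sandwich cultures received a second collagen layer on top. The labels describe the sandwich as the stable culture and the confluent monolayer as the unstable one, and the series asked how gene expression differs between them. RNA was collected on days 1, 2, 3 and 8 counted from the second layer, in both cultures, with 3 arrays for each of the 8 groups. The labels do not say whether replicates are separate animals or separate cultures, so p-values measure only the spread between these samples, which may be technical. Strain, sex and age of the animals are not given in the sources used here.

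Values are log2 probe set levels from Affymetrix arrays, as deposited, and the 3 arrays per group limit their precision. Correlations between arrays of 1 group were 0.993 to 0.997, and no pair of arrays was identical. All 9 measured hepatocyte markers, led by Alb and Serpina1, were above the median of all values (5.62) in every group. Their mean level per group lay between 12.25 and 12.64 for monolayer and between 12.63 and 13.18 for sandwich. Markers of endothelial cells (Stab2, Kdr and others) were below that median in every group for 9 of 9 genes. Of the 9 macrophage markers 5, C1qb and C1qc among them, stood above it in every group. Bulk RNA cannot tell fewer cells of a type from less RNA per cell.

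Promoter windows from RefSeq (GRCr8), 250 bases before to 50 after an annotated transcription start, matched 5 of the 8 members: Cldn1, Cldn3, Tjp1, Ocln and F11r. Cldn2, Cdh1 and Cdh2 were not matched. Shown are the windows of Ocln and F11r, which were lower in sandwich in the first days, and of Cldn1 and Cldn3, which were higher there at day 8. Each reads 5′ to 3′ on the strand of its gene, and capitals mark the hexamer CAGGTG or its reverse complement CACCTG. This is the E2 box form that E-cadherin repressors of the Snail and Zeb families are known to bind.
Ocln (chr2:33441149-33441448, minus strand): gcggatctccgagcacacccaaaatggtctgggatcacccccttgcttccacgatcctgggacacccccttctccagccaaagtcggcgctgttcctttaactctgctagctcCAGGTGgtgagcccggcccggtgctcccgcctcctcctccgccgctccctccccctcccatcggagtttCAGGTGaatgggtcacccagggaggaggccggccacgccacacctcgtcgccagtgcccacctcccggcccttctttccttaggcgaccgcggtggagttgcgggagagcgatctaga
F11r (chr13:86405979-86406278, plus strand): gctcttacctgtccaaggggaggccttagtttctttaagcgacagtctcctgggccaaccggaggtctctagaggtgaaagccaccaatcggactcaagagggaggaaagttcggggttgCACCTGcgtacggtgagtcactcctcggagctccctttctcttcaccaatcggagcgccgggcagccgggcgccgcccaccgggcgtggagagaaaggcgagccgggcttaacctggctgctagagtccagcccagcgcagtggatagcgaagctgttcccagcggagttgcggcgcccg
Cldn3 (chr12:27346498-27346797, minus strand): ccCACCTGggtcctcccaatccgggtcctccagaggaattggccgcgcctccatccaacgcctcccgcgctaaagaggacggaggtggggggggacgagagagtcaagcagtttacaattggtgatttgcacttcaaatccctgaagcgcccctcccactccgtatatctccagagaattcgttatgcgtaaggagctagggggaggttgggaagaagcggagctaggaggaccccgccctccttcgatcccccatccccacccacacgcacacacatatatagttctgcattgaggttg
Cldn1 (chr11:87926126-87926425, plus strand): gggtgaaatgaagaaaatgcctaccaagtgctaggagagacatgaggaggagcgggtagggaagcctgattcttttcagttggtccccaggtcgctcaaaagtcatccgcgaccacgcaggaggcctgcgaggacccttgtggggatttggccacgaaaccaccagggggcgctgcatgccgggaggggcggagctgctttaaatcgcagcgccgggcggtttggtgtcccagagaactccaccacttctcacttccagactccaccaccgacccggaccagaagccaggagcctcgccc
The Ocln and Tjp1 windows lie inside the annotated span of their genes and so belong to an internal start. Counted from the annotated start, with negative positions before it, the E2 hexamer starts at -137 and -68 in Ocln, at -130 in F11r and at -248 in Cldn3. Neither Cldn1 nor Tjp1 holds it. On both strands, 18.8% of 33469 RefSeq promoter windows of the same length hold at least 1 such hexamer. The GC box GGGCGG, or its reverse complement CCGCCC, occurs in 33.1% of these windows; it stands at -64 and -36 in Cldn1, at -16 in Cldn3 and at -58 in F11r. The TATA box TATAAA and the TEAD motif GGAATG, each present in 14.2% of windows on either strand, occur in none of the 5. No GC box overlaps an E2 hexamer in these windows. A match of letters is a description of the window and shows no binding.

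Between the cultures, the 8 genes did not move as a block. Ocln, Tjp1, F11r and Cdh2 were lower in sandwich by 0.32 to 0.70 (log2) at days 2 and 3. By day 8 Ocln and Tjp1 were still lower, while Cldn1 and Cldn3 were higher in sandwich. The Cldn1 difference was not called on its second probe set (0.03), nor without replicate 2 of sandwich day 8 (0.30). Cdh1, which encodes E-cadherin, was not called in any comparison. Over time, Cldn1 rose and Cldn2 fell by more than 2-fold in both cultures.

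**Figure D1:**
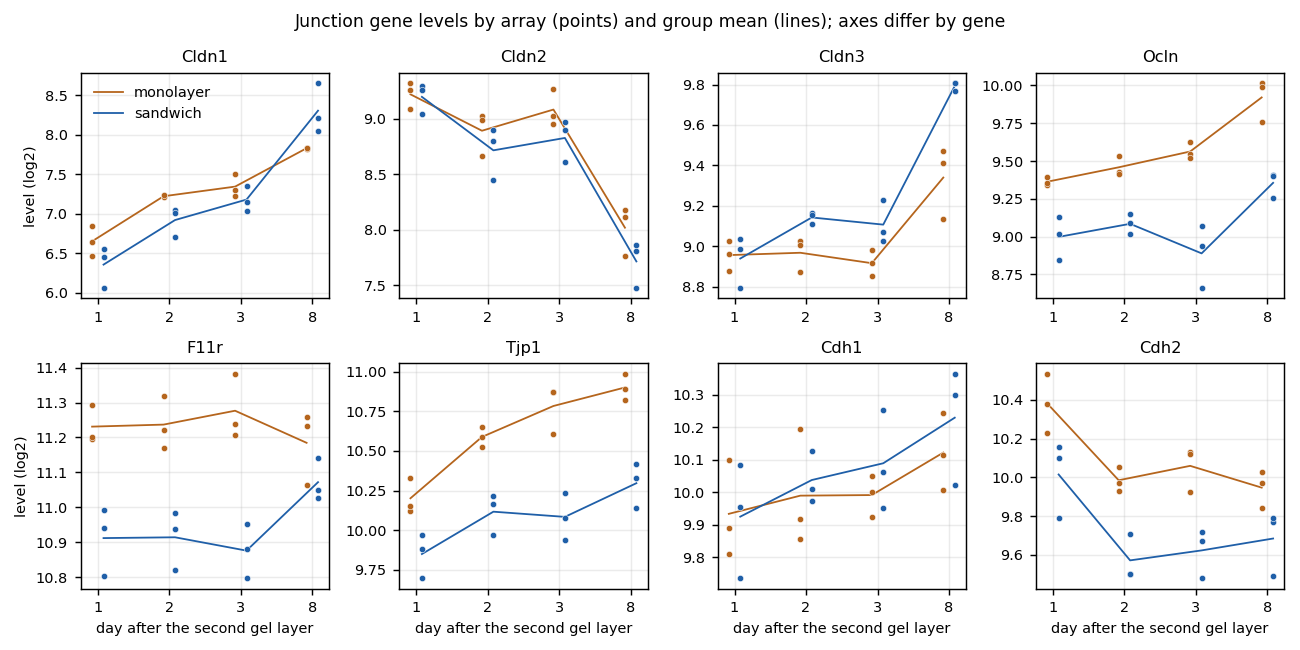
Levels (log2) of the 8 genes on each of the 24 arrays (points) and the group means (lines), against the day, for monolayer (brown) and sandwich (blue); each gene has its own vertical axis, and the days are spaced evenly, not to scale. Ocln and Tjp1 lie lower in sandwich at every day, Cldn1 climbs to 8.30 in sandwich at day 8, and Cldn2 drops to 7.72 there.

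Cldn1 encodes claudin-1, a sealing claudin. In monolayer its 3 arrays stood at 6.85, 6.65 and 6.46 at day 1, at 7.22, 7.21 and 7.24 at day 2, at 7.23, 7.30 and 7.50 at day 3, and at 7.83, 7.82 and 7.83 at day 8. In sandwich they stood at 6.45, 6.06 and 6.56, then 7.05, 6.71 and 7.01, then 7.15, 7.35 and 7.04, and at day 8 at 8.05, 8.65 and 8.21. All day 8 arrays lay above all earlier ones of their culture, and the 3 sandwich arrays of day 8 lay above the 3 of monolayer. From day 1 to day 8 Cldn1 rose by 1.18 ± 0.14 (SE) in monolayer, or 2.26-fold (limma, adjusted p = 2.59e-07). In sandwich the rise was 1.94 ± 0.14, or 3.85-fold (adjusted p = 7.46e-11). The sandwich rise exceeded the monolayer rise by 0.77 ± 0.20 (adjusted p = 0.00729).

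On the first probe set, Cldn1 rose from day 1 to day 2 by 0.57 in monolayer (adjusted p = 0.0148) and by 0.56 in sandwich (adjusted p = 0.0129). From day 2 to day 3 the differences of 0.12 and 0.26 were not called (adjusted p = 0.821 and 0.473). From day 3 to day 8 it rose by 0.48 in monolayer (adjusted p = 0.0209) and by 1.12 in sandwich (adjusted p = 2.93e-06). The monolayer call to day 2 was lost without replicate 2 or 3 of day 1 or 3 of day 2 (adjusted p = 0.0537 to 0.0948). The rise in those fits was 0.47 to 0.57. The sandwich call to day 2 was lost without replicate 2 of day 1 or 1 or 3 of day 2 (adjusted p = 0.0697 to 0.116). There the rise was 0.41 to 0.52. The late monolayer call was lost without replicate 1 or 2 of day 3 or any replicate of day 8 (adjusted p = 0.0529 to 0.0934). The rise was then 0.43 to 0.49, against 0.48 with all arrays.

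Cldn1 was lower in sandwich by 0.29, 0.30 and 0.16 at days 1, 2 and 3, none of which was called (adjusted p = 0.439, 0.305 and 0.546). At day 8 it was higher in sandwich by 0.47 ± 0.14, or 1.39-fold (adjusted p = 0.0119). Without replicate 2 of sandwich day 8, the array at 8.65, the difference was 0.30 (adjusted p = 0.119). Cldn1 was the only member called by the test of culture by day interaction (adjusted p = 0.0147). Without that same array it called none of the 8. Across all genes that test called 21.2%.

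All 3 probe sets of Cldn1 rose from day 1 to day 8, but they differ in the culture comparison. The second probe set rose from day 1 to day 8 by 1.39 in monolayer (adjusted p = 3.15e-09) and by 1.47 in sandwich (adjusted p = 1.83e-09). Its steps in monolayer differed from those of the first: 0.40 from day 1 to day 2 was not called (adjusted p = 0.0753), and 0.48 from day 2 to day 3 was called (adjusted p = 0.0257). At day 8 it stood at 7.79, 7.84 and 7.69 in monolayer and at 7.85, 7.98 and 7.59 in sandwich. These arrays overlap, and the difference of 0.03 ± 0.13 was not called (adjusted p = 0.890). Its rises differed by 0.08 ± 0.18 between the cultures (adjusted p = 0.856). The third, with a mean of 5.42, is dim and rose by 1.89 and 3.06 (adjusted p = 2.57e-05 and 2.93e-08). At day 8 it stood at 7.14, 6.88 and 5.23 in monolayer and at 7.52, 7.24 and 7.07 in sandwich, a difference of 0.86 ± 0.31 (adjusted p = 0.0394). The higher Cldn1 level in sandwich at day 8 therefore rests on the first probe set and on the third, whose arrays overlap. On the third, the monolayer array at 5.23 lies far below those at 7.14 and 6.88. Its group medians were 6.88 in monolayer and 7.24 in sandwich, closer than the means, and its difference without that array is not given here.

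Cldn3 encodes another sealing claudin. Its arrays were 8.88, 8.96 and 9.03 in monolayer at day 1 and 8.79, 8.99 and 9.04 in sandwich. At day 8 they were 9.14, 9.47 and 9.41 in monolayer and 9.77, 9.81 and 9.81 in sandwich. The groups overlap at day 1 and are apart at day 8, where every sandwich array is above every monolayer array. Cldn3 was higher in sandwich at day 8 by 0.45 ± 0.09, or 1.37-fold (adjusted p = 3.83e-04). Between days 1 and 8 it rose by 0.38 in monolayer (adjusted p = 0.00172) and by 0.85, or 1.81-fold, in sandwich (adjusted p = 7.38e-08). The 2 rises differed by 0.47 ± 0.13 (adjusted p = 0.0117). At days 2 and 3 the 3 sandwich arrays already lay above the 3 monolayer arrays, but the differences of 0.17 and 0.19 were not called (adjusted p = 0.395 and 0.186). Of the steps between days, only that from day 3 to day 8 was called, with rises of 0.42 in monolayer and 0.69 in sandwich (adjusted p = 0.00184 and 7.38e-06).

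Cldn2 encodes a claudin that forms cation-selective pores, and it moved opposite to Cldn1 and Cldn3. Its monolayer arrays were 9.32, 9.26 and 9.09 at day 1, 9.27, 9.03 and 8.96 at day 3, and 8.18, 8.11 and 7.77 at day 8. Its sandwich arrays were 9.29, 9.04 and 9.26 at day 1, 8.90, 8.98 and 8.61 at day 3, and 7.81, 7.86 and 7.48 at day 8. Day 8 lies below every earlier array in both cultures. Cldn2 fell by 1.20 ± 0.14 in monolayer, to 2.30-fold lower (adjusted p = 2.00e-07), and by 1.48 ± 0.14 in sandwich, to 2.79-fold lower (adjusted p = 9.97e-09). The falls differed by -0.28 ± 0.20, which was not called (adjusted p = 0.441). Most of each fall came after day 3, with changes of -1.06 in monolayer and -1.11 in sandwich (adjusted p = 4.84e-06 and 3.73e-06). In sandwich Cldn2 also fell from day 1 to day 2 by 0.48 (adjusted p = 0.0416). That call was lost without any 1 of replicates 1 and 3 of day 1 or 2 and 3 of day 2, with adjusted p of 0.0706 to 0.278. Sandwich minus monolayer was -0.02, -0.18, -0.26 and -0.30 at days 1, 2, 3 and 8, with overlapping arrays each time and no call (lowest adjusted p = 0.120, at day 8). Without replicate 3 of monolayer day 8 the last difference was -0.43 and called (adjusted p = 0.0391).

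Ocln encodes occludin, a membrane protein of the tight junction belt. At day 1 its arrays were 9.34, 9.35 and 9.39 in monolayer and 9.13, 9.02 and 8.85 in sandwich. At day 3 they were 9.63, 9.54 and 9.52 against 8.94, 9.07 and 8.66, and at day 8 10.01, 9.99 and 9.76 against 9.41, 9.40 and 9.26. Sandwich arrays lay below all monolayer arrays at each of the 4 days. The difference was -0.37 ± 0.10 at day 1 (adjusted p = 0.0581, not called) and -0.37 at day 2 (adjusted p = 0.0206). It was -0.67 at day 3, or 1.60-fold lower (adjusted p = 1.33e-05), and -0.57 at day 8, or 1.48-fold lower (adjusted p = 7.18e-05). The day 2 call was lost without replicate 1 or 2 of either culture (adjusted p = 0.0501 to 0.099).

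Ocln rose in both cultures, by 0.56 in monolayer (adjusted p = 7.12e-05) and by 0.36 in sandwich (adjusted p = 0.00789) from day 1 to day 8. The called step was from day 3 to day 8, with 0.36 in monolayer (adjusted p = 0.0151) and 0.47 in sandwich (adjusted p = 0.00188). The sandwich rise over the whole period was 0.28 without replicate 3 of sandwich day 1 (adjusted p = 0.0639). The call of the monolayer step was lost without replicate 2 or 3 of day 3 or 1 or 2 of day 8 (adjusted p = 0.0552 to 0.0775). The step in those fits was 0.31 to 0.35. At day 8 the sandwich level of 9.36 had reached that of monolayer at day 1, also 9.36, and the arrays of these groups overlap. The second Ocln probe set, with a mean of 8.22, was lower in sandwich by 0.39, 0.30, 0.58 and 0.57 at days 1, 2, 3 and 8, all called (adjusted p = 0.0148, 0.0402, 1.64e-05 and 1.18e-05). From day 1 to day 8 it rose by 0.38 in monolayer (adjusted p = 0.00112), and in sandwich its change of 0.20 was not called (adjusted p = 0.1002).

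F11r encodes junctional adhesion molecule A, an immunoglobulin-type adhesion protein. Its monolayer arrays ran from 11.06 to 11.38 over all days. Its sandwich arrays were 10.80, 10.94 and 10.99 at day 1, 10.82, 10.98 and 10.94 at day 2, 10.80, 10.95 and 10.88 at day 3, and 11.03, 11.14 and 11.05 at day 8. Through day 3 every sandwich array lay below every monolayer array, and at day 8 the groups overlap. The differences were -0.32, -0.32 and -0.40 at days 1, 2 and 3 (SE 0.08, adjusted p = 0.0478, 0.0182 and 9.76e-04), and -0.11 at day 8 (adjusted p = 0.373). The day 1 call was lost when any 1 of its 6 arrays was left out (adjusted p = 0.0539 to 0.238). The day 2 call was lost without replicate 3 of monolayer (adjusted p = 0.0949) or 1 of sandwich (adjusted p = 0.112). F11r was not called over time in either culture, with day 8 minus day 1 at -0.05 and 0.16 (adjusted p = 0.751 and 0.190). The culture difference was not shown to change with the day (interaction test, adjusted p = 0.374).

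Tjp1 encodes zonula occludens protein 1, the scaffold that links the membrane proteins to actin. In monolayer its arrays were 10.33, 10.12 and 10.16 at day 1, 10.87, 10.61 and 10.88 at day 3, and 10.99, 10.89 and 10.82 at day 8. In sandwich they were 9.97, 9.70 and 9.88 at day 1, 10.07, 10.24 and 9.94 at day 3, and 10.42, 10.33 and 10.14 at day 8. As for Ocln, sandwich arrays lay below all monolayer arrays at every day. The difference was -0.35 ± 0.10 at day 1 (adjusted p = 0.0985, not called), -0.47 at day 2 (adjusted p = 0.00509), -0.70 at day 3 (1.63-fold lower, adjusted p = 1.80e-05) and -0.60 at day 8 (1.52-fold lower, adjusted p = 6.57e-05). Tjp1 rose from day 1 to day 8 by 0.70 in monolayer (adjusted p = 7.88e-06) and by 0.45 in sandwich (adjusted p = 0.00199). The rises differed by -0.25 ± 0.15 (adjusted p = 0.320). The monolayer step from day 1 to day 2 was 0.39 (adjusted p = 0.0287). Its call was lost without replicate 2 or 3 of day 1 or 1 or 3 of day 2 (adjusted p = 0.0879 to 0.134). The step was then 0.35 to 0.39. The second Tjp1 probe set, with a mean of 5.94, lies near the median of all values and was called in none of these comparisons. Its sandwich minus monolayer was -0.56, -0.47, -0.04 and -0.25 at days 1, 2, 3 and 8, with arrays apart at days 1 and 8. Its change from day 1 to day 8 in monolayer was -0.10 (adjusted p = 0.805), opposite in sign to the first.

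**Figure D2:**
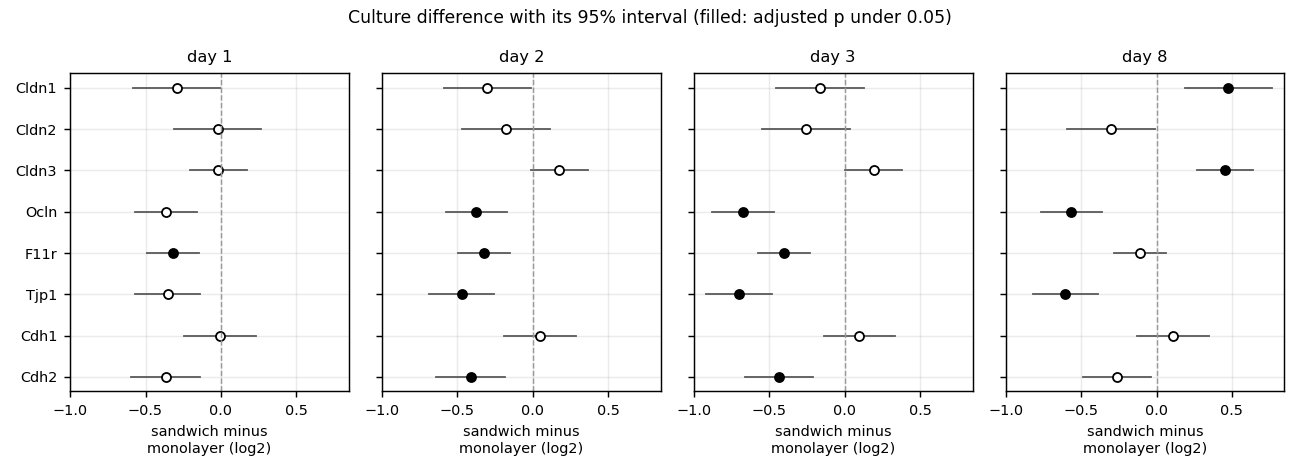
Sandwich minus monolayer (log2) for each of the 8 genes at days 1, 2, 3 and 8, with the 95% interval of the model; filled points have an adjusted p under 0.05. Filled points are all on the lower side up to day 3, and at day 8 Cldn1 and Cldn3 lie on the higher side and Ocln and Tjp1 on the lower.

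Cdh1, the E-cadherin gene, varied least, with group means from 9.92 to 10.23. Its monolayer arrays lay between 9.81 and 10.24 and its sandwich arrays between 9.73 and 10.37, and the cultures overlap at each day. Sandwich minus monolayer was -0.01, 0.05, 0.10 and 0.11 at days 1, 2, 3 and 8 (adjusted p = 0.988, 0.928, 0.690 and 0.568). The 95% interval at day 8 ran from -0.13 to 0.35. Day 8 minus day 1 was 0.19 in monolayer (adjusted p = 0.249) and 0.31 in sandwich (adjusted p = 0.0560). The sandwich value was within the threshold under some other settings, with an adjusted p of 0.0254 after quantile normalization and 0.0339 with robust trended eBayes. After quantile normalization the monolayer value was called too (0.28, adjusted p = 0.0303). The sandwich value was also called without replicate 3 of sandwich day 1 (0.38, adjusted p = 0.0305) or 3 of sandwich day 8 (0.41, adjusted p = 0.0169). The second Cdh1 probe set has a mean of 3.37, far below the median of all values, and was called in no comparison.

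Cdh2, the N-cadherin gene, was lower in sandwich in the first days. Its monolayer arrays were 10.53, 10.38 and 10.23 at day 1, 10.05, 9.93 and 9.97 at day 2, 10.13, 9.93 and 10.12 at day 3, and 10.03, 9.84 and 9.97 at day 8. Its sandwich arrays were 10.16, 9.79 and 10.10, then 9.71, 9.50 and 9.50, then 9.48, 9.72 and 9.67, and at day 8 9.77, 9.79 and 9.49. Sandwich lies below monolayer at each day, without overlap. The difference was called at day 2, at -0.41 ± 0.11 (adjusted p = 0.0226), and at day 3, at -0.44 (adjusted p = 0.00592). It was not called at day 1, at -0.37 (adjusted p = 0.105), or at day 8, at -0.26 (adjusted p = 0.0831; 0.0217 after quantile normalization). The day 2 call was lost without replicate 1 or 3 of monolayer or 2 or 3 of sandwich (adjusted p = 0.0567 to 0.110).

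The first Cdh2 probe set fell from day 1 to day 2, by 0.40 in monolayer (adjusted p = 0.0345) and by 0.44 in sandwich (adjusted p = 0.0131). The monolayer call was lost without replicate 1 or 2 of day 1 or any replicate of day 2 (adjusted p = 0.0565 to 0.199). The changes in those fits were -0.32 to -0.43. The sandwich call was lost without replicate 1 or 3 of day 1 or 2 or 3 of day 2 (adjusted p = 0.0698 to 0.103). There the changes were -0.37 to -0.41. Day 8 minus day 1 was -0.43 in monolayer (adjusted p = 0.00320) and -0.33 in sandwich (adjusted p = 0.0290). This sandwich call was lost without replicate 1 or 3 of day 1 or 3 of day 8 (adjusted p = 0.112 to 0.182). The changes were then -0.23 to -0.29. The second Cdh2 probe set, with a mean of 8.99, showed no such fall. Its day 8 minus day 1 was 0.14 in monolayer (adjusted p = 0.607) and 0.39 in sandwich (adjusted p = 0.0966). Both probe sets were lower in sandwich at day 3, the second by 0.58 (adjusted p = 0.0168). The third, with a mean of 5.56, lies near the median of all values. It differed the other way, by 0.07, 0.14, 0.15 and 0.23 at days 1, 2, 3 and 8, and was called at none of them (lowest adjusted p = 0.179, at day 8, where the arrays are apart). The lower level in sandwich at day 3 was called on both brighter probe sets, and the fall over time on 1 of them.

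**Figure D3:**
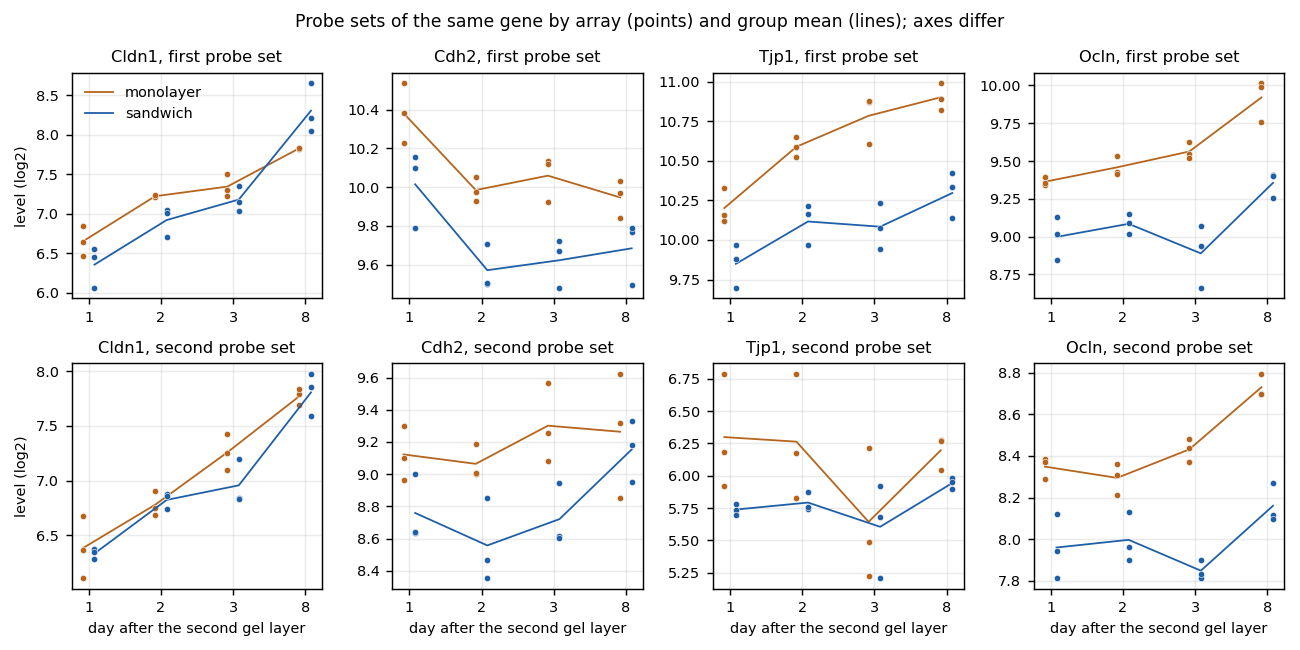
First and second probe sets of Cldn1, Cdh2, Tjp1 and Ocln on each array (points) with group means (lines), in log2 against the day (spaced evenly, not to scale); axes differ. The cultures separate at day 8 on the first Cldn1 probe set (8.30 against 7.83) but not on the second, and Ocln separates on both.

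Counted over the 8 genes, 0 were higher and 1 lower in sandwich at day 1 (limma, adjusted p under 0.05), where 0.823% of all genes were called higher and 1.75% lower. At an unadjusted p under 0.05, 0 members were higher and 5 lower. Shares of all genes are given at the adjusted threshold only, so the unadjusted counts have no share to be set against. At day 2, 0 were higher and 4 lower, against 2.83% and 5.85% of all genes (unadjusted, 0 and 5 members). At day 3, 0 were higher and 4 lower, against 10.9% and 11.8% (unadjusted, 1 and 4 members). These 4 were Ocln, F11r, Tjp1 and Cdh2 at both days. At day 8, 2 were higher and 2 lower, against 15.6% and 20.7%. The median difference of the members was -0.31, -0.31, -0.33 and -0.19 at days 1, 2, 3 and 8, and that of all genes lay between -0.01 and 0.01.

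Within the cultures, the calls on the first probe sets were for the steps from day 1 to day 2 and from day 3 to day 8. With 1 array left out, 0 to 2 members were called from day 1 to day 2 in each culture. The second Cldn1 probe set was called from day 2 to day 3 in monolayer (0.48, limma, adjusted p = 0.0257). In monolayer, 2 members rose (Cldn1 and Tjp1) and 1 fell (Cdh2) from day 1 to day 2, where 3.56% of all genes rose and 3.42% fell. From day 2 to day 3 none of the 8 was called on its first probe set in either culture by limma, and none had an unadjusted p under 0.05. Over that step 3.45% of all genes rose and 3.81% fell in monolayer, and 2.4% rose and 1.48% fell in sandwich. From day 3 to day 8, 3 rose (Cldn1, Cldn3 and Ocln) and 1 fell (Cldn2) in monolayer, against 8.66% and 8.38% of all genes. The same 4 genes were called in the same directions in sandwich, against 7.01% and 8.1%. Sandwich from day 1 to day 2 had 1 rise (Cldn1) and 2 falls (Cldn2 and Cdh2), against 4.17% and 3.97%.

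From day 1 to day 8, Cldn1, Cldn3, Ocln and Tjp1 rose and Cldn2 and Cdh2 fell in each culture on their first probe sets, 4 up and 2 down. The second probe sets of Cdh2 in both cultures and of Tjp1 in monolayer had the opposite sign and were not called. That of Ocln rose without a call in sandwich, as did that of Tjp1. Of all genes, 17.5% rose and 21.2% fell in monolayer, and 14.3% rose and 17.5% fell in sandwich. The difference between these changes was called for 2 members, Cldn1 and Cldn3, both with the larger rise in sandwich, against 11.3% of all genes higher and 10.5% lower. No member was called on the lower side, adjusted or not.

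**Figure D4:**
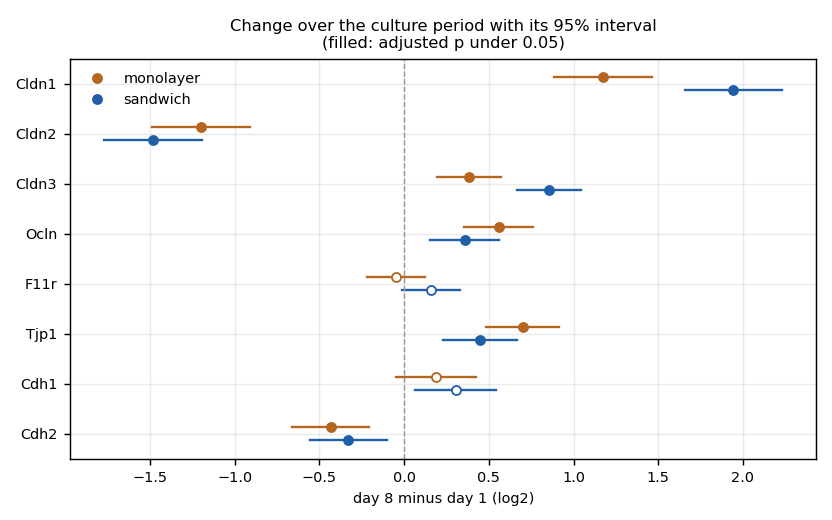
Day 8 minus day 1 (log2) for each gene in monolayer (brown) and sandwich (blue), with the 95% interval of the model; filled points have an adjusted p under 0.05. Cldn1 rises by 1.18 and 1.94, Cldn2 falls by 1.20 and 1.48, and Cdh1 and F11r are not called.

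Ordered by level, the groups fell into different sequences for different genes. For Cldn1, sandwich day 8 (8.30) stood above monolayer day 8 (7.83), which stood above monolayer day 3 (7.34), with arrays apart at both steps. The neighbours below these, down to sandwich day 1 (6.36), all overlap. Cldn3 had sandwich day 8 (9.79) apart from monolayer day 8 (9.34), and all later neighbours, down to monolayer day 3 (8.92), overlap. For Cldn2 the 2 day 8 groups were lowest, 8.02 in monolayer and 7.72 in sandwich, apart from the other 6 (9.22 to 8.72), in which neighbours overlap.

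For Ocln, monolayer day 8 (9.92) stood apart from monolayer day 3 (9.56), which overlaps monolayer day 2 (9.46). Sandwich days 2, 1 and 3 were lowest (9.08, 9.00 and 8.89) and overlap each other. For Tjp1 the 3 later monolayer groups (10.90, 10.78 and 10.59) lay apart from the next, sandwich day 8 (10.30), and neighbours below overlap down to sandwich day 1 (9.85). F11r had all 4 monolayer groups on top (11.28 to 11.18). Of these, only monolayer day 8 overlaps the next group, sandwich day 8 (11.07), and the other sandwich groups lay apart below (10.91 to 10.88). For Cdh2, monolayer day 1 (10.38) lay apart from the rest, and sandwich days 8, 3 and 2 were lowest (9.68, 9.62 and 9.57). For Cdh1 all neighbours overlap.

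Over the 8 group means, which share arrays and the day and culture structure, the members fell into sets with like profiles. The Pearson r was 0.92 for Tjp1 with Ocln, 0.78 for Tjp1 with F11r and 0.82 for Ocln with F11r. Cldn1 and Cldn3 had an r of 0.83, and Cldn2 had -0.90 with Cldn1 and -0.95 with Cldn3. Cdh1, whose own range is small, had 0.91 with Cldn1, 0.93 with Cldn3 and -0.94 with Cldn2. These values describe 8 points and carry no test. Among 2067 genes whose group means span at least 1 (log2), the profiles most like Cldn1 were Epb41l4a (r = 0.99), Slc24a3 and Dennd10 (both 0.98). For Cldn3 they were Slc22a5 (0.99), Fosb and Decr1 (both 0.98), and for Cldn2 Dot1l (0.97), Csrp2 (0.96) and Plaat5 (0.95). Tjp1 was most like Anxa3 (0.996), Filip1l (0.99) and S100a11 (0.99), and Ocln most like Clic1 (0.98), Amotl2 (0.98) and Ifnlr1 (0.97). F11r was most like Prrg4, Frmd6 and S100a4 (all 0.97). Cdh1 gave Rgs1, Hao2 and Fchsd2 (all 0.98), although its own group means span only 0.31. The likeness was weakest for Cdh2, with Nt5c2 and Tmem106a (both 0.91) and Nmt2 (0.90).

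RNA quality and markers of other cells also moved with culture or day. For beta-actin, the 3' control probe set exceeded the 5' one, a gap used to judge RNA integrity, by group means of 0.79 to 0.86 in monolayer arrays and 0.94 to 1.03 in sandwich arrays. For GAPDH the ranges were 0.23 to 0.33 and 0.24 to 0.38. Of 9 hepatocyte markers, 7 were higher and 0 lower in sandwich at day 8 (7 and 0 also at day 3). For this and the counts of calls below, 15.6% of all genes were higher and 20.7% lower in sandwich at day 8. At day 3 these shares were 10.9% and 11.8%. Of 7 measured cholangiocyte markers, 2 (Epcam and Spp1) were above 5.62 in every group and 3 below it in every group. Their mean level went from 5.11 at day 1 to 6.53 at day 8 in monolayer and from 5.15 to 5.34 in sandwich, with 3 of 7 lower in sandwich at day 8. For 10 stellate cell or fibroblast markers, Acta2 and Pdgfrb the brightest, it went from 5.04 to 6.03 in monolayer cultures and, less far, from 5.09 to 5.72 in sandwich cultures. Lymphocyte markers (Cd4, Cd2 and others) showed no call between the cultures up to day 3 by limma, with 2 of 9 higher at an unadjusted p under 0.05 at day 3 and none before. At day 8, 1 of 9 was higher in sandwich, Ptprc (0.28, adjusted p = 0.0214), named after its values were seen. Ptprc is dim, with group means from 3.99 to 4.26, and 8 of the 9 lymphocyte markers were below 5.62 in every group. Macrophage markers had a mean of 6.45 in sandwich and 5.79 in monolayer at day 3, with 8 of 9 higher in sandwich. The part of RNA quality and of other cells in the junction gene differences was not tested.

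Other junction genes give the setting of these 8. The list, chosen with earlier results of these data known, has 41 measured tight junction and 28 measured adherens junction genes. Of the tight junction genes, 0, 0, 2 and 5 were higher in sandwich at days 1, 2, 3 and 8, and 3, 4, 8 and 11 were lower. For adherens junction genes the counts were 0, 0, 0 and 1 higher and 4, 9, 14 and 15 lower. Of all genes, 0.823%, 2.83%, 10.9% and 15.6% were higher on these days and 1.75%, 5.85%, 11.8% and 20.7% lower. At an unadjusted p under 0.05, 1, 1, 4 and 9 of the 69 were higher and 15, 21, 29 and 28 lower. The share of all genes at that unadjusted threshold is not given, so these counts have nothing to be set against. The median difference at day 8 was 0.02 for the tight junction genes and -0.38 for the adherens junction genes, against 0.00 for all genes. The lists differ in brightness: 12 of the 41 tight junction genes and 4 of the 28 adherens junction genes were below 5.62 in every group. From day 1 to day 8, 12 tight junction genes rose and 7 fell in monolayer, and 9 rose and 3 fell in sandwich. For adherens junction genes, 12 rose and 3 fell in monolayer, and 5 rose and 5 fell in sandwich. The shares of all genes were 17.5% and 21.2% in monolayer and 14.3% and 17.5% in sandwich.

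Several genes of proteins that tie cadherins to actin were lower in sandwich at day 8. Ctnna1 (alpha-catenin) differed by -1.12 ± 0.10 (adjusted p = 2.40e-09), Ctnnb1 (beta-catenin) by -0.52 ± 0.07 (adjusted p = 3.51e-06) and Jup (plakoglobin) by -0.79 ± 0.12 (adjusted p = 1.88e-05). Ctnnd1 (p120-catenin), at -0.65, was not called (adjusted p = 0.0517). Afdn (afadin, which binds nectins and actin) differed by -1.13 ± 0.10 (adjusted p = 1.38e-09) and Vcl (vinculin) by -0.93 ± 0.10 (adjusted p = 2.92e-08). Ctnna1 rose by 0.71 from day 1 to day 8 in monolayer (adjusted p = 3.14e-06) and changed by -0.19 in sandwich (adjusted p = 0.204). Afdn rose by 0.54 in monolayer and fell by 0.39 in sandwich (adjusted p = 9.50e-05 and 0.00364). The cadherin genes Cdh1 and Cdh2 themselves were not called between the cultures at day 8.

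Among tight junction genes lower in sandwich at day 8 were Jam3, a junctional adhesion molecule (-1.14 ± 0.09, adjusted p = 5.01e-10), and Amotl2, an angiomotin-like protein (-0.85 ± 0.10, adjusted p = 5.37e-07). The polarity kinase gene Prkci differed by -0.84 (adjusted p = 7.13e-07) and the polarity scaffold gene Pals1 by -0.87 (adjusted p = 2.23e-06). Cldn4 (-1.63, adjusted p = 3.17e-10) is dim in every group, with means from 3.43 to 5.36. Mpdz (-1.29, adjusted p = 6.49e-08) has at least 1 group mean under 5.62, so no fold is given for either. Cldn4 is also on the list of cholangiocyte markers. The 5 that were higher in sandwich, named after their values were seen, were Cldn14 (0.61), Tjp3 (0.55), Cldn12 (0.43), Patj (0.31) and Igsf5 (0.31). The 1 adherens junction gene that was higher, also named afterwards, was Pkp4 (0.46, adjusted p = 0.0155). Cgn (cingulin) fell in monolayer by 0.60 (adjusted p = 1.44e-04) and did not differ in a called way between the cultures at day 8 (0.12, adjusted p = 0.521).

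**Figure D5:**
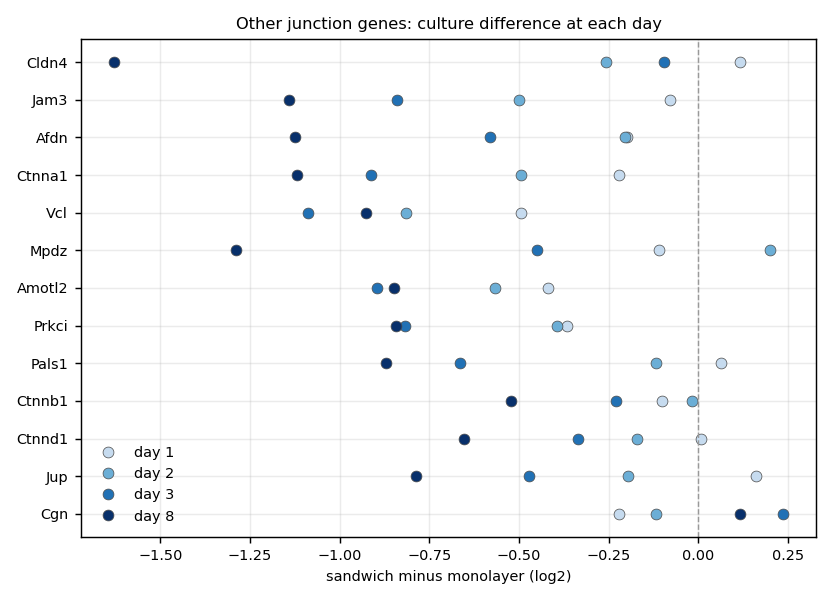
Sandwich minus monolayer (log2) at days 1, 2, 3 and 8 (light to dark) for the 10 other junction genes with the smallest adjusted p at day 8, and for Ctnnd1, Jup and Cgn. All but Cgn lie on the lower side at day 8, from -1.63 for Cldn4, which is dim in every group, to -0.52 for Ctnnb1.

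Transcriptional repressors of E-cadherin were measured for 6 genes, of which only Zeb1 stood above 5.62 in every group. At days 1 and 2 none differed between the cultures by limma, with 1 and 0 at an unadjusted p under 0.05. Zeb1 was lower in sandwich at day 3 by 0.34 (adjusted p = 0.00668) and not called at day 8 (-0.11, adjusted p = 0.414). It fell from day 1 to day 8 in sandwich by 0.34 (adjusted p = 0.00483). Tcf3 was lower in sandwich at day 8 by 0.42 (adjusted p = 0.0279) and rose in monolayer by 0.39 (adjusted p = 0.0371). Twist1, dim in all groups, rose by 0.58 in monolayer and 0.42 in sandwich (adjusted p = 1.69e-04 and 0.00547). Snai1, Zeb2 and Twist2 were not called at day 8 between the cultures, nor from day 1 to day 8 (lowest adjusted p = 0.194). From day 3 to day 8 in monolayer, 0 of the 6 rose and 1 fell, against 8.66% and 8.38% of all genes.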

How the data were processed

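The deposited values are log2 probe set levels from rat Affymetrix arrays, 1 per sample for 24 samples. The submitters' processing notes name RMA, which corrects background, normalizes between arrays and summarizes probes, and limma, without roles or versions. The values ran from 2.61 to 15.07. From the table of 31099 probe sets, 57 controls were left out. Of the 31042 left, 20826 carried 1 platform gene symbol, 436 several and 9780 none.

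Group means and their differences were estimated jointly over the 24 arrays with limma 3.58.1 in R 4.3.3 (lmFit, eBayes), tested first on simulated data. P-values were two-sided and adjusted by the Benjamini-Hochberg method over 31042 probe sets within each comparison. A gene was called at an adjusted p under 0.05. No fold is given where the lower group mean is under 5.62, the median of all values. The table holds no detection calls.

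Members and lists were chosen with earlier results of these data known. Named were all 8 members with every probe set, up to 10 other junction genes called at day 8 by adjusted p, the catenins, Cgn and Afdn, all repressors, the 2 brightest of each marker list, and the 3 genes most like each member. Alternatives were other scalings, filters, model settings, probe sets and left-out arrays.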

Additional observations from a re-analysis of the deposited data

Results flagged for a closer look

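The change of Cldn1 from day 1 to day 8 differed between the cultures. It was larger in sandwich by 0.77 (log2; limma, adjusted p = 0.00729), with all 3 arrays of day 8 above all 3 of day 1 in each culture. On the second Cldn1 probe set the same difference was 0.08 (adjusted p = 0.856), and on the third 1.17 (adjusted p = 0.0758).

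The change of Cldn3 also differed, being larger in sandwich by 0.47 (limma, adjusted p = 0.0117), with all 3 arrays of day 8 above all 3 of day 1 in each culture. After quantile normalization this difference was 0.39 (adjusted p = 0.0560).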

How the results depend on the processing

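No value of the first probe sets changed direction where it was called, under quantile normalization, centring on array medians, a filter on dim probe sets, array weights, robust trended eBayes, a replicate block, or fits to the compared arrays alone. Scaling moved the median of all genes by at most 0.067 (centring, monolayer day 8 minus day 1, -0.067).

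The next probe set of the gene turned Cdh2 between days 1 and 8 (0.14 in monolayer, 0.39 in sandwich) and Tjp1 in monolayer (-0.036 to day 2, -0.10 to day 8). At day 1, 1 member was called between the cultures, against 2 with array weights or the filter, 3 with the replicate block or robust eBayes, and 0 with quantile normalization, the compared arrays alone, or any array left out (0 to 0). At day 2, leaving out 1 array gave 2 to 3 calls in place of 4.

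The interaction test called 1 member, and 2 after centring, the filter or the replicate block (0 to 2 with 1 array left out). It called 0 without replicate 2 of sandwich day 8, and 2 without replicate 2 of monolayer day 8. Quantile normalization left 1 of 2 calls for the difference of changes. From day 1 to day 2, 3 calls became 1 in monolayer after centring or in the compared arrays alone, and 1 in sandwich in the latter (0 to 2 in each with 1 array left out). From day 3 to day 8 in monolayer, 4 became 2 to 3.

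After group means were removed, arrays of different groups were more alike when they shared a replicate number. Of same-numbered pairs, 56 of 84 correlated above 0.1 (median 0.20), against 37 of 168 differently numbered pairs (median -0.13). The labels do not say whether the numbers pair samples, and the main fit treats the arrays as unpaired. With the replicate block, 5 members in place of 4 were called at day 8 (Cldn2 added, adjusted p = 0.0437) and 7 in place of 6 from day 1 to day 8 in sandwich (Cdh1 added, adjusted p = 0.0136). Arrays give no counts, and probe sets of Cldn1, Tjp1, Cdh1 and Cdh2 that are dim or near the median limit what they show.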

Other observations

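Cadherin-17 (Cdh17) and nectin-2 (Nectin2), adhesion genes outside the 8, moved over a wider range than Cdh1 and Cdh2. Both were picked here after their values were seen. For Cdh17, sandwich minus monolayer was -0.70, -0.81 and -1.45 (log2) at days 1, 2 and 3 (limma, adjusted p = 0.0132, 0.00106 and 9.71e-08). At day 8 its difference was 0.12 (adjusted p = 0.653). From day 1 to day 8 Cdh17 rose by 0.50 in monolayer (adjusted p = 0.0126) and by 1.32 in sandwich (adjusted p = 2.78e-07). For Nectin2 it was -0.69, -0.95 and -1.23 on those days (adjusted p = 0.00185, 7.74e-06 and 3.76e-08) and not called at day 8 (-0.32, adjusted p = 0.0539). It rose in both cultures from day 1 to day 8, by 1.78 in monolayer and 2.15 in sandwich (adjusted p = 1.93e-11 and 1.16e-12).

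Keratins Krt19 and Krt7, markers of bile duct cells also picked after their values were seen, rose by 3.77 and 3.52 in monolayer from day 1 to day 8 (adjusted p = 1.48e-18 and 3.94e-15). In sandwich Krt19 rose by 0.55 (adjusted p = 3.50e-04), and Krt7 at 0.23 was not called (adjusted p = 0.346). Epcam, another marker of those cells, rose by 0.60 and 0.55 (adjusted p = 7.62e-04 and 0.00218). Of the 7 measured markers on that list, 4 rose and 0 fell in monolayer, and 3 were not called. In sandwich 2 rose, 0 fell and 5 were not called. Among all genes 17.5% rose in monolayer and 14.3% in sandwich. Krt19 and Krt7 are dim in their lowest groups, with means of 4.16 and 3.72.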
